A study of Mus musculus with 4 samples.

Results

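The 10 nuclear genes described here keep the mitochondrial genome and shape the mitochondrial network, and their RNA was measured in mouse 2-cell embryos. They were chosen by symbol: Tfam, Polg, Polrmt, Tfb2m and Twnk act on mitochondrial DNA (mtDNA), Mfn1, Mfn2 and Opa1 fuse mitochondria, and Dnm1l and Fis1 divide them. All 10 symbols matched a row of the table of TPM values, which lists 30049 Ensembl genes and gives reads scaled by transcript length and by a library total. The listed genes sum to between 768174 and 799166 TPM per library, less than the full total of a TPM scale, so a value is relative to a total that the table holds only in part. Wild-type embryos from crosses of BDF1 with BDF1 mice (BDF1 being the hybrid of C57BL/6 and DBA/2), with mice of 8 to 12 weeks, were cultured from the zygote stage, 18 h after human chorionic gonadotropin, for 24 h in the embryo culture medium KSOM. The control group had no addition and the DMSO group had 2% dimethyl sulfoxide (DMSO), a polar solvent and cryoprotectant. Each group has 2 libraries, and 50 embryos at the 2-cell stage were collected per group. Neither the labels nor the methods say whether the libraries of a group came from separate cultures, so that p-values measure only the spread between these libraries, which may be technical. Every library pools embryos, so a change in some embryos cannot be told apart from a smaller change in all, and TPM gives a share of the RNA rather than the amount per embryo. TPM values also keep no depth, so the depth of each library is unknown here.

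Mitochondria carry their own small circular genome. Its replication needs the polymerase gamma catalytic subunit (Polg) and the Twinkle helicase (Twnk), its transcription needs the mitochondrial RNA polymerase (Polrmt) with the initiation factors Tfb2m and Tfam, and Tfam also packs mtDNA into nucleoids. The mitofusins Mfn1 and Mfn2 join outer membranes and Opa1 joins inner membranes, while the dynamin Dnm1l (Drp1) constricts mitochondria and Fis1 is an outer membrane protein linked to fission. The mouse egg brings a large store of mtDNA and of round, sparse-cristae mitochondria, and mtDNA is not amplified through early cleavage. Transcripts of the zygotic genome replace the maternal ones around the 2-cell stage.

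Many nuclear genes for mtDNA upkeep are known targets of the transcription factors NRF1 and GABP (an ETS factor), so the promoters of the 10 genes were read from RefSeq (GRCm38.p6, all 10 genes matched) and searched on both strands for GCGCATGCG (NRF1), CCGGAAGT (ETS/GABP) and AAGATGGCG (YY1). The windows ran from 250 bases before to 50 bases after the RefSeq start nearest the GENCODE start. CCGGAAGT was found in 4 of the 10 windows, against 3.89% of the 32851 promoters in RefSeq's set, GCGCATGCG in 2, against 1.75%, and AAGATGGCG in 0, against 1.4%. No window held matches to more than 1 of the motifs, and a match is a description that names no bound factor. The last 80 bases before the start are shown for the 2 genes that passed the test between groups (Polrmt and Twnk), for the gene with the largest upward difference (Dnm1l) and for the 5 genes with a match there, and capitals mark the match, which in Opa1 joins overlapping matches on both strands. The match of Tfb2m to GCGCATGCG lies after its start, at position 12 on the opposite strand. The windows of Polrmt, Twnk and Dnm1l held none of the 3 motifs, though a further RefSeq start of Twnk has CCGGAAGT on the opposite strand at position -111 from that start. Each sequence is written 5′ to 3′ on the strand of its gene.
Polrmt, chr10:79746582-79746661, minus strand: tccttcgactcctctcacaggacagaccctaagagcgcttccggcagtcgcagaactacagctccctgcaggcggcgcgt
Twnk, chr19:45005583-45005662, plus strand: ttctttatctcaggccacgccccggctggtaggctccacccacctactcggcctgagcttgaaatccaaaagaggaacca
Dnm1l, chr16:16359032-16359111, minus strand: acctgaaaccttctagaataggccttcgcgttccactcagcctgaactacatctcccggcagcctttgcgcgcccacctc
Tfam, chr10:71238045-71238124, minus strand: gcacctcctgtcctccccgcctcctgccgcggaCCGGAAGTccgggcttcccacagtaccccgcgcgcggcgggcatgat
Polg, chr7:79466274-79466353, minus strand: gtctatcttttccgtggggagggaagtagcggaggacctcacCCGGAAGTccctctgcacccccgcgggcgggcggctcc
Mfn1, chr3:32529402-32529481, plus strand: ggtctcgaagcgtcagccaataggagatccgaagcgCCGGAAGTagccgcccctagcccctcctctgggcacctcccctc
Fis1, chr5:136953195-136953274, plus strand: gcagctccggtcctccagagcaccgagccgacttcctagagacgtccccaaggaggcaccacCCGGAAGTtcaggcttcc
Opa1, chr16:29579254-29579333, plus strand: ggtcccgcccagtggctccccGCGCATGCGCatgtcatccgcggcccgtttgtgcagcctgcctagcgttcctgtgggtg

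In control embryos Tfb2m and Polrmt were the most abundant of the 10 genes and Tfam the least. The mean TPM ran from Tfb2m (184 ± 14.9, SD, n = 2) and Polrmt (172 ± 29.7) over Fis1 (49.4 ± 3.79), Mfn1 (40.4 ± 1.64), Twnk (17.5 ± 1.10), Mfn2 (13.9 ± 2.34), Opa1 (13 ± 4.82), Dnm1l (7.76 ± 5.37) and Polg (5.37 ± 0.263) to Tfam (1.02 ± 0.658). The ranges of the libraries overlapped between Tfb2m and Polrmt and between neighbours from Mfn2 to Polg, and the other neighbours in this order were separate. In DMSO-treated embryos the order began with Tfb2m (133 ± 16.1) and Mfn1 (52.8 ± 11.0). Fis1 (37.5 ± 3.79), Polrmt (32.6 ± 8.73), Dnm1l (29.0 ± 16.4) and Opa1 (23.7 ± 7.70) came next with ranges that overlapped between neighbours, and Mfn2 (7.98 ± 0.315), Polg (5.15 ± 1.20), Twnk (4.37 ± 2.22) and Tfam (0.513 ± 0.434) were the lowest. Polrmt thus stood near the top of the order in control and in its middle in DMSO-treated embryos, and Dnm1l near the bottom in control and in the middle in DMSO-treated embryos.

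**Figure D1:**
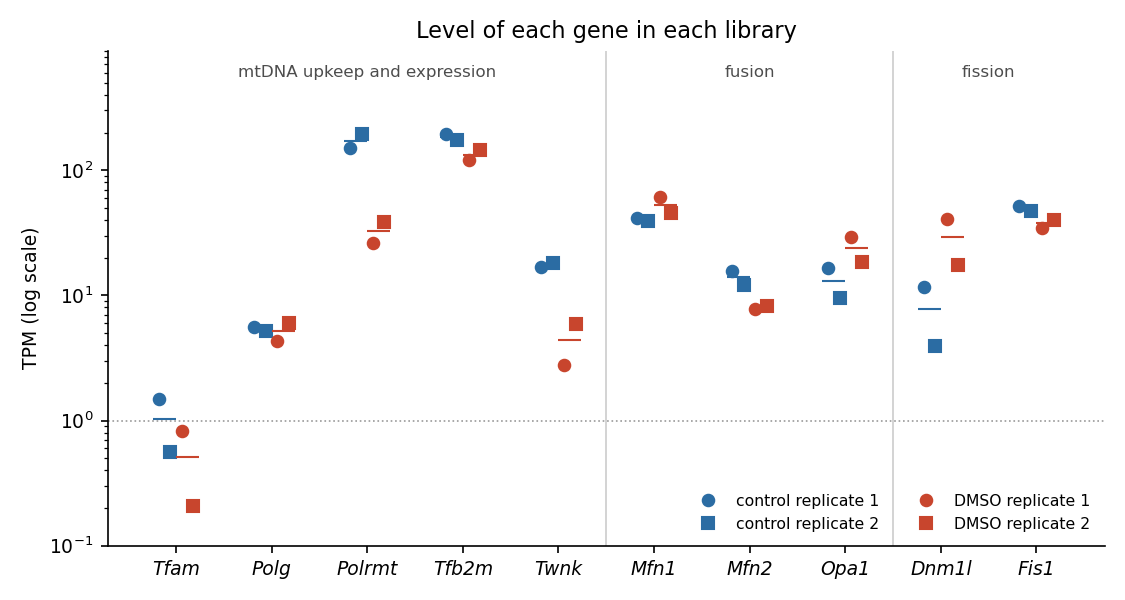
TPM of the 10 genes (log axis) in each library, with blue for control and red for DMSO, circles for replicate 1, squares for replicate 2 and short lines for group means; the dotted line marks 1 TPM. The DMSO libraries of Polrmt (26.4 and 38.8 TPM) and Twnk (2.80 and 5.94 TPM) sit far below the control libraries, and those of Dnm1l (40.6 and 17.4 TPM) above them.

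Differences were tested on log2(TPM + 1) by limma, which fits a linear model per gene and borrows variance across genes, for every gene whose 4 libraries averaged 1 TPM or more, and a gene was called at a Benjamini-Hochberg adjusted p under 0.05 over all 12038 genes tested. Fold changes in log2 are on that scale, which understates the change of low genes. The model held no replicate block, that is, no term for the replicate number, unless the block is named. Of the 10 genes 9 were tested, and Tfam was below the filter. Polrmt and Twnk were called lower in DMSO-treated embryos, or 2 of 9, against 14.1% of all genes tested, and 0 were called higher, against 6.42%, with 1 gene (Dnm1l) higher at an unadjusted p under 0.05. Calls in either direction made up 20.5% of all genes tested. The libraries of the groups did not overlap for 8 of the 9, against 69.8% of all genes tested, with 5 lower and 3 higher, against 38.7% and 31.1%. These shares are near those of the whole table and say nothing particular about the 10 genes as a list. Over the whole table the median log2 fold change was -0.09. For a single gene an exact permutation test of 2 libraries against 2 cannot give a two-sided p under 0.33. The calls rest on all libraries: without control replicate 1, control replicate 2 or DMSO replicate 1, limma called 0 of the 12038 genes, with 3745, 2602 and 3078 genes at an unadjusted p under 0.05, and so every call given below was lost, while without DMSO replicate 2 1883 genes were called, 1492 of them also called with all libraries. With no filter on low values limma called 0 genes as well, with 5368 at an unadjusted p under 0.05.

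**Figure D2:**
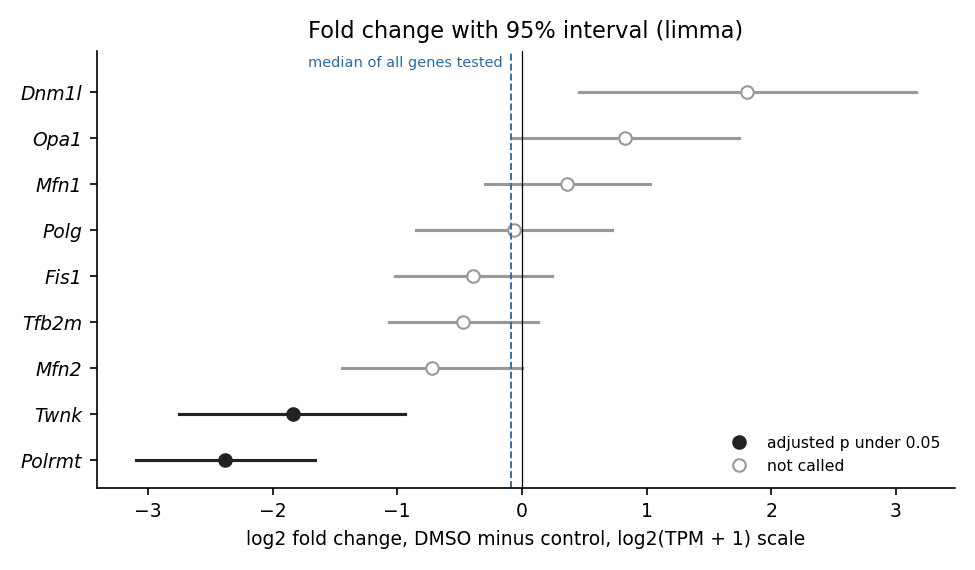
Log2 fold change (DMSO minus control, log2(TPM + 1) scale) of the 9 genes tested, with 95% intervals from limma; filled points passed an adjusted p of 0.05, and the dashed line is the median of all genes tested (-0.09). The intervals of Polrmt (-3.10 to -1.66) and Twnk (-2.75 to -0.94) lie below 0, and that of Dnm1l (0.46 to 3.16) lies above 0 although it was not called.

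Polrmt (ENSMUSG00000020329, chromosome 10 of GRCm38 from 79736123 to 79746581, minus strand) is the RNA polymerase that reads the mitochondrial genome and makes primers for its replication. It was at 151 and 193 TPM in control and 26.4 and 38.8 TPM in DMSO-treated embryos. The groups lay far apart, the mean being 5.28-fold lower with DMSO. The log2 fold change was -2.38 (SE 0.30, 95% interval -3.10 to -1.66, limma adjusted p = 0.0181). Without any single library it lay between -2.65 and -2.11, with a limma adjusted p of 0.0873, 0.155 and 0.0827 without control replicate 1, control replicate 2 and DMSO replicate 1. None of the 31-base words of its transcripts (0%) occur in transcripts of other genes.

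Twnk (ENSMUSG00000025209, chromosome 19 from 45005663 to 45012762, plus strand) encodes the helicase that unwinds mtDNA ahead of the polymerase. Its level was 16.7 and 18.2 TPM in control and 2.80 and 5.94 TPM in DMSO-treated embryos, which did not overlap. The mean was 3.99-fold lower and the log2 fold change was -1.84 (SE 0.38, 95% interval -2.75 to -0.94, limma adjusted p = 0.0275). Leaving out a library moved it between -2.28 and -1.41, with a limma adjusted p of 0.104 and 0.178 without control replicates 1 and 2 and 0.110 without DMSO replicate 1. Twnk overlaps the start of Mrpl43, a mitochondrial ribosomal protein gene on the opposite strand, and 480 of its 3981 words occur in Mrpl43 transcripts. The cDNA kit used does not mark strand, so reads from the shared stretch cannot be told apart. Mrpl43 was at 65.8 and 88.9 TPM in control and 9.84 and 25.3 TPM in DMSO-treated embryos (log2 fold change -2.20, SE 0.45, limma adjusted p = 0.0275). The part of Mrpl43 in the Twnk values was not tested.

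Of the other genes of mtDNA expression and copying, Tfb2m and Polg did not pass the test, and Tfam was not tested. Tfb2m (ENSMUSG00000026492, chromosome 1 from 179528055 to 179546267, minus strand), which melts the mitochondrial promoters for the polymerase, was at 195 and 174 TPM in control and 121 and 144 TPM in DMSO-treated embryos. All DMSO values were under the control values, with a log2 fold change of -0.47 (SE 0.25, 95% interval -1.07 to 0.13, limma adjusted p = 0.199), and -0.19 with quantile normalization. Of its words 36.4% are shared, nearly all with Gm1818, which was at 0 TPM in every library. Polg (ENSMUSG00000039176, chromosome 7 from 79446231 to 79466362, minus strand) was at 5.55 and 5.18 TPM in control and 4.30 and 6 TPM in DMSO-treated embryos, so that the groups overlapped. Its log2 fold change was -0.06 (SE 0.33, 95% interval -0.85 to 0.72, limma adjusted p = 0.894), and it was 0.02 with TPM rescaled without mitochondrially encoded genes. The opposite strand holds Fanci, a Fanconi anemia repair gene that shares 807 of 11120 words of Polg and was at 48.7 and 35.2 TPM in control and 5.98 and 5.57 TPM in DMSO-treated embryos (log2 fold change -2.65, limma adjusted p = 0.0181). Its part in the Polg values was not tested.

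Tfam (ENSMUSG00000003923, chromosome 10 from 71225464 to 71238280, minus strand) had the lowest level of the 10 genes in both groups. It was at 1.49 and 0.559 TPM in control and 0.820 and 0.207 TPM in DMSO-treated embryos. The groups overlapped, and the mean of the 4 libraries (0.769 TPM) was below the filter. The ratio of Tfam to Polrmt was 0.00986 and 0.00290 in control and 0.0310 and 0.00533 in DMSO-treated embryos, a difference of 1.27 in log2 with a pooled SD of 1.55 between replicates. This difference rested on single libraries, being 2.15 and 0.38 without control replicates 1 and 2 and 0.00 and 2.54 without DMSO replicates 1 and 2.

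Among the fusion genes none passed the test without a replicate block, and the differences of Mfn1 and Mfn2 had opposite signs. Mfn2 (ENSMUSG00000029020, chromosome 4 from 147873599 to 147904704, minus strand), which also tethers mitochondria to the endoplasmic reticulum, was at 15.6 and 12.2 TPM in control and 7.76 and 8.20 TPM in DMSO-treated embryos. All DMSO values were lower, with a log2 fold change of -0.72 (SE 0.30, 95% interval -1.44 to 0.00, limma adjusted p = 0.124). Mfn1 (ENSMUSG00000027668, chromosome 3 from 32529465 to 32579239, plus strand) was at 41.6 and 39.3 TPM in control and 60.6 and 45.1 TPM in DMSO-treated embryos. These values were higher in both DMSO libraries, by 0.36 in log2 (SE 0.28, 95% interval -0.30 to 1.03, limma adjusted p = 0.354), which became 0.15 without DMSO replicate 1, 0.57 without DMSO replicate 2 and 0.63 with quantile normalization. Within a library, where scaling between libraries plays no part, the ratio of Mfn1 to Mfn2 was 2.67 and 3.21 in control and 7.81 and 5.49 in DMSO-treated embryos. The groups did not overlap, and the difference of 1.16 in log2 compares with a pooled SD of 0.29. No test was run on it, the smallest exact permutation p being 0.33.

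Opa1 (ENSMUSG00000038084, chromosome 16 from 29579334 to 29654884, plus strand), the inner membrane dynamin that also keeps cristae closed, was at 16.4 and 9.61 TPM in control and 29.2 and 18.3 TPM in DMSO-treated embryos. The lower DMSO library was above the higher control library. Its log2 fold change was 0.83 (SE 0.38, 95% interval -0.08 to 1.74, limma adjusted p = 0.152), and 0.47 without control replicate 2 and 0.51 without DMSO replicate 1. Under the replicate block Opa1 was called higher (limma adjusted p = 0.0273). Its words are shared with no other gene (0%).

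Of the fission genes, Dnm1l had the largest difference upward of the 10 and did not pass the test without a replicate block. Dnm1l (ENSMUSG00000022789, chromosome 16 from 16312230 to 16358959, minus strand) was at 11.6 and 3.97 TPM in control and 40.6 and 17.4 TPM in DMSO-treated embryos. The groups did not overlap and the means differed 3.74-fold, but replicate 1 was more than replicate 2 in both groups and the spread was wide. The log2 fold change was 1.81 (SE 0.56, 95% interval 0.46 to 3.16, limma adjusted p = 0.0638). It lay between 1.14 (without control replicate 2) and 2.48 (without control replicate 1) when a library was left out. With a filter at a mean of 5 TPM the limma adjusted p was 0.0461 and with quantile normalization 0.0486, both past the threshold. Under the replicate block Dnm1l was called higher (limma adjusted p = 0.00335). Of its 5311 words, 299 occur in Gm13719, which was at 0 TPM in every library. Fis1 (ENSMUSG00000019054, chromosome 5 from 136953275 to 136966234, plus strand) was at 52.1 and 46.8 TPM in control and 34.8 and 40.2 TPM in DMSO-treated embryos. Both DMSO values were lower, with a log2 fold change of -0.39 (SE 0.26, 95% interval -1.02 to 0.24, limma adjusted p = 0.294), and -0.13 with quantile normalization.

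Summed over the 10 genes, the level was 507 and 503 TPM in control and 328 and 324 TPM in DMSO-treated embryos, 1.55-fold lower (-0.63 in log2, pooled SD 0.01, no test). This SD understates the spread, since genes moved in opposite directions between replicates. In control, Polrmt went from 151 to 193 TPM and Tfb2m from 195 to 174 TPM. Rescaling alone moved the difference by more than the SD, to -0.58 or -0.53. Polrmt accounted for most of the difference between groups. Its share of the sum was 29.8% and 38.4% in control against 8.04% and 12% in DMSO-treated embryos. The share of Dnm1l was 2.28% and 0.789% in control and 12.4% and 5.38% in DMSO-treated embryos, and that of Mfn1 8.20% and 7.81% against 18.4% and 13.9%. Tfb2m held a like share in both groups, at 38.4% and 34.5% against 36.9% and 44.4%. The summed fusion genes (Mfn1, Mfn2 and Opa1) stood to the summed fission genes (Dnm1l and Fis1) as 1.15 and 1.20 in control and as 1.29 and 1.24 in DMSO-treated embryos. That ratio differed by 0.10 in log2 with a pooled SD of 0.04, far less than the ratio of Mfn1 to Mfn2.

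The genes most like Polrmt over the 4 libraries, by Euclidean distance of log2(TPM + 1), were Timm8a1 (distance 0.25), Crnkl1 (0.38) and the ribosomal protein pseudogene Rpl34-ps1 (0.39). Timm8a1, a chaperone of the mitochondrial intermembrane space, was at 172 and 207 TPM in control and 27.2 and 42.3 TPM in DMSO-treated embryos. Crnkl1, a splicing factor, was at 129.8 and 176 TPM in control and 32.0 and 40.6 TPM in DMSO-treated embryos. The genes most like Dnm1l were Tbl1xr1 (0.19), a corepressor subunit, Selp (0.26), which encodes P-selectin, and Tdrd3 (0.27), a Tudor domain protein. All 3 shared its high value in replicate 1 of each group, which follows from choosing them by distance over these same values. For Tbl1xr1 these were 11.9 and 4.14 TPM in control and 35.8 and 17.8 TPM in DMSO-treated embryos.

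Around the 10 genes, 8 lists of nuclear genes of the same pathways were described by counts, to be read against the 14.1% of all genes tested that were called lower and the 6.42% called higher. The counts are small and are given as a description. In the list of mtDNA replication and nucleotide supply, 12 of 17 genes were tested, 2 were called lower and 0 higher (0 at an unadjusted p under 0.05), and the median log2 fold change was -0.36, against -0.22 with quantile normalization. Ssbp1, which coats single-stranded mtDNA and was the most abundant of the list, was at 190.3 and 189 TPM in control and 48.4 and 89.6 TPM in DMSO-treated embryos (log2 fold change -1.51, SE 0.34, limma adjusted p = 0.0318). Dna2, a nuclease and helicase of nuclear and mitochondrial DNA, was at 69.9 and 64.3 TPM against 23.3 and 33.2 TPM (log2 fold change -1.24, SE 0.29, limma adjusted p = 0.0337). With quantile normalization neither passed, the limma adjusted p being 0.0572 for Ssbp1 and 0.0647 for Dna2. Both were called lower like Twnk on the deposited values, while Polg2, the accessory subunit of the polymerase, had values of 10.1 and 8.74 TPM in control and 5.18 and 7.38 TPM in DMSO-treated embryos and was not called.

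For mitochondrial transcription and RNA processing, 21 of 24 genes were tested, with 4 called lower, 1 higher and a median of -0.37. Mrpl12, a ribosomal protein that has been reported to bind Polrmt and the most abundant of the list in control embryos, though below Supv3l1 and Rexo2 in DMSO-treated ones, was at 139 and 148 TPM in control and 40.0 and 60.6 TPM in DMSO-treated embryos (log2 fold change -1.52, SE 0.29, limma adjusted p = 0.0245). Tefm, the elongation factor of Polrmt, was at 36.1 and 47.2 TPM against 14.0 and 17.6 TPM (-1.34 in log2, SE 0.30, limma adjusted p = 0.0310). Tefm was thus called lower, as Polrmt was, with a limma adjusted p of 0.0496 for Tefm under quantile normalization. Whether they change together was not tested. Mterf1a, a termination factor, was at 9.30 and 13.9 TPM against 1.94 and 2.34 TPM (-1.98 in log2, SE 0.34, limma adjusted p = 0.0217), but 30.5% of its words are shared, nearly all with its near copy Mterf1b. Slirp, an mRNA stabilizing partner of Lrpprc, was at 39.6 and 33.1 TPM against 6.66 and 10.9 TPM (-1.96 in log2, limma adjusted p = 0.0209), and 94.1% of its words are shared, mostly with the overlapping Snw1, so its value is uncertain. Mtpap, the mitochondrial poly(A) polymerase, rose from 10.3 and 9.30 TPM to 29.7 and 19.1 TPM (1.21 in log2, SE 0.33, limma adjusted p = 0.0457), and missed the threshold with a pseudocount of 0.1 (0.0506) and without a variance trend (0.0541).

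Of the regulators of mitochondrial biogenesis 6 of 9 genes were tested and 0 were called by limma, with 2 lower and 0 higher at an unadjusted p under 0.05 and a median of -0.33, which was -0.10 with quantile normalization. Gabpa, the DNA-binding subunit of GABP, was the most abundant at 297 and 246 TPM in control and 162 and 199.8 TPM in DMSO-treated embryos (-0.58 in log2, limma adjusted p = 0.142), its log2 fold change being -0.34 after quantile normalization. Nrf1 was at 98.5 and 95.9 TPM against 49.8 and 56.7 TPM (-0.86 in log2, SE 0.25, limma adjusted p = 0.0540), with a limma adjusted p of 0.0400 with a filter at a mean of 5 TPM and a fold change in log2 of -0.57 with quantile normalization (limma adjusted p = 0.141). The coactivator Pprc1 was at 128 and 184 TPM against 44.2 and 107 TPM (-1.14 in log2, SE 0.44, limma adjusted p = 0.107). It rested on single libraries, at -0.51 without DMSO replicate 1 and -1.77 without DMSO replicate 2 (limma adjusted p = 0.383 and 0.0380). All DMSO values of these 3 were under the control values. The coactivator Ppargc1a did not exceed 0.263 TPM in any library, and its relative Ppargc1b was listed at 0 in all.

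**Figure D3:**
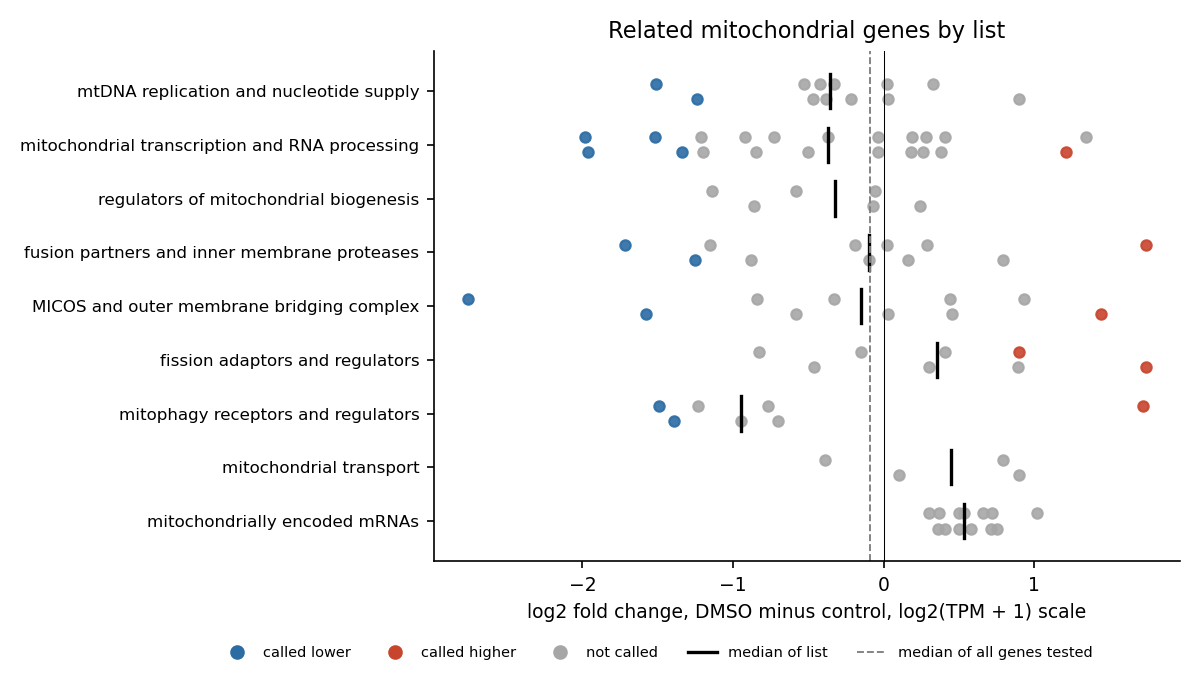
Log2 fold change (DMSO minus control, log2(TPM + 1) scale) of each tested gene of 9 related lists, with blue for genes called lower, red for genes called higher and grey for the rest; black bars are list medians and the dashed line is the median of all genes tested (-0.09). The medians run from -0.95 (mitophagy receptors and regulators) to 0.53 (mitochondrially encoded mRNAs).

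Among fusion partners and inner membrane proteases all 11 genes were tested, with 2 called lower, 1 higher and a median of -0.10. Yme1l1, a protease that cleaves Opa1, was at 64.1 and 72.3 TPM in control and 23.6 and 33.4 TPM in DMSO-treated embryos (log2 fold change -1.25, SE 0.29, limma adjusted p = 0.0333, and 0.0669 with quantile normalization). The prohibitin Phb2 was at 6.34 and 9.16 TPM against 1.08 and 2.29 TPM (-1.72 in log2, SE 0.39, limma adjusted p = 0.0317). Parl, a rhomboid protease and the most abundant of the list in DMSO-treated embryos, though not in control, rose from 35.9 and 21.1 TPM to 145 and 61.2 TPM (1.74 in log2, SE 0.47, limma adjusted p = 0.0455). Its limma adjusted p was 0.0554 with a pseudocount of 0.1 and 0.0577 without a variance trend, and its log2 fold change was 1.12 without DMSO replicate 1. Oma1, the other protease that cleaves Opa1, had groups that overlapped at 4.10 and 2.72 TPM against 4.01 and 1.93 TPM. For the cristae organizing MICOS complex and the outer membrane proteins it binds, 10 of 11 genes were tested, with 2 called lower, 1 higher and a median of -0.15, which was -0.08 with quantile normalization. The called genes Mtx2 (13.8 and 29.5 TPM against 1.04 and 3.82 TPM, limma adjusted p = 0.0248) and Mtx1 (23.2 and 33.9 TPM against 7.11 and 10.7 TPM, limma adjusted p = 0.0301) encode the metaxins of the outer membrane. The MICOS subunit Apoo rose from 22.7 and 19.1 TPM to 83.6 and 40.4 TPM (1.44 in log2, limma adjusted p = 0.0458, but 0.0545 with a pseudocount of 0.1 and 0.0582 without a variance trend), which was 0.92 without DMSO replicate 1, and 43.3% of its words are shared with a pseudogene at 0 TPM. Micos10, the most abundant, was at 360.1 and 433 TPM against 552 and 519 TPM and was not called (0.44 in log2, and 0.68 with quantile normalization).

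Of the fission adaptors and regulators 8 of 11 were tested, with 0 called lower (1 at an unadjusted p under 0.05), 2 higher and a median of 0.36, which was 0.54 with quantile normalization. Mff, the outer membrane receptor that recruits Dnm1l, was at 61.4 and 41.0 TPM in control and 188 and 153 TPM in DMSO-treated embryos. It rose 3.33-fold in mean (log2 fold change 1.74, SE 0.30, limma adjusted p = 0.0216), with replicates closer together than those of Dnm1l. Gdap1, an outer membrane protein linked to fission and the most abundant of the list in control embryos, though below Mff in DMSO-treated ones, was at 77.8 and 80 TPM against 162 and 136 TPM (0.90 in log2, SE 0.25, limma adjusted p = 0.0484). This call was lost with a pseudocount of 0.1 (limma adjusted p = 0.0552), without a variance trend (0.0740) and without DMSO replicate 2 (0.0629). The receptors Mief2 (3.71 and 4.69 TPM against 1.66 and 2.18 TPM) and Mief1 (at most 0.416 TPM) were low in both groups. Mief2 was not called and Mief1 was below the filter.

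In the list of mitophagy receptors and regulators 7 of 8 genes were tested, with 2 called lower, 1 higher and a median of -0.95. Bnip3, a receptor of the outer membrane and the most abundant of the list in control embryos, though below Fundc1 and Bnip3l in DMSO-treated ones, was at 461 and 473 TPM in control and 157 and 202 TPM in DMSO-treated embryos (log2 fold change -1.39, SE 0.25, limma adjusted p = 0.0226), and 57.0% of its words are shared with other genes. Pink1, the kinase that marks damaged mitochondria, was at 3.11 and 2.20 TPM against 0.658 TPM and a value listed at 0 (limma adjusted p = 0.0451). This call was lost with a pseudocount of 0.1 (limma adjusted p = 0.0909), with TPM rescaled without mitochondrially encoded genes (0.0545) and without DMSO replicate 2 (0.116). Fundc1, another receptor, went the other way, from 159.6 and 118 TPM to 511 and 404 TPM (1.72 in log2, SE 0.28, limma adjusted p = 0.0207). Of the genes of mitochondrial transport 4 of 6 were tested and 0 were called by limma, with 1 at an unadjusted p under 0.05 and a median of 0.44. The most abundant, the Miro GTPase Rhot1, was at 75.3 and 48.0 TPM against 74.8 and 55.4 TPM. The adaptors Trak1 (10.9 and 6.45 TPM against 19.7 and 13.9 TPM, limma adjusted p = 0.117) and Trak2 (2.61 and 1.37 TPM against 4.90 and 3.30 TPM, limma adjusted p = 0.172) had higher values with DMSO and were not called. Their log2 fold changes of 0.90 and 0.79 were 0.56 and 0.48 without control replicate 2.

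The mRNAs that Polrmt transcribes from mtDNA had higher values with DMSO, unlike Polrmt itself, and none passed the test without a replicate block. Under the block, which also called 2151 of all 12038 genes tested higher, limma called 10 of the 13 higher. Summed over the 13 mitochondrially encoded mRNAs, the level was 82954 and 96781 TPM in control and 118298 and 173391 TPM in DMSO-treated embryos, 1.6-fold higher (0.68 in log2, pooled SD 0.30, no test), and the difference was 0.40 without DMSO replicate 2. Each of the 13 had a log2 fold change above 0, from 0.30 to 1.02 with a median of 0.53. Of them 11 had groups that did not overlap, against 31.1% higher without overlap among all genes tested. The 13 are transcribed from the same genome and are not independent of one another, so these counts are a description and not repeated evidence. Without the block limma called 0 of the 13, with 0 at an unadjusted p under 0.05 and adjusted p-values from 0.129 to 0.420. The median of the list was 0.58 with median-ratio scaling and 0.27 with quantile normalization. The most abundant, mt-Atp6, was at 15375 and 27886 TPM in control and 24443 and 49829 TPM in DMSO-treated embryos. In each group it was higher in replicate 2, and so was mt-Atp8 (6694 and 14702 TPM against 13761 and 29375 TPM). Leaving out a library moved the log2 fold change of mt-Atp6 (0.75) to between 0.24 and 1.27. That of mt-Atp8 (1.02) moved to between 0.45 and 1.59. Both were called higher under the replicate block (limma adjusted p = 0.00288 for mt-Atp6 and 0.0024 for mt-Atp8). Several of these mRNAs have near-identical nuclear copies in the annotation, so the split of reads between copies is uncertain. Of the words of mt-Atp6 99.5% are shared, and its closest copy by shared words, Gm10925, held at most 29.2 TPM. For mt-Nd3, however, 98.1% of the words occur in Gm28438, which held more TPM than mt-Nd3 itself (902 and 985 TPM in control, 997 and 1349 TPM in DMSO-treated embryos) in every library, so the level of mt-Nd3 is uncertain.

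**Figure D4:**
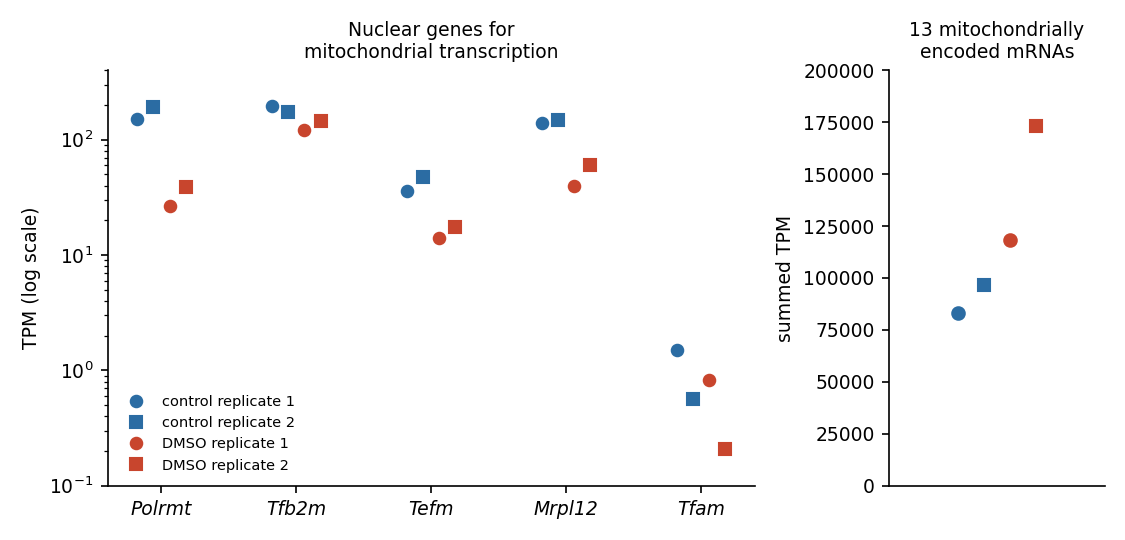
Left, TPM (log axis) of 5 nuclear genes for mitochondrial transcription in each library. Right, summed TPM (linear axis from 0) of the 13 mitochondrially encoded mRNAs, with blue for control, red for DMSO, circles for replicate 1 and squares for replicate 2. Polrmt, Tefm and Mrpl12 are lower in both DMSO libraries, while the summed mRNAs are higher.

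The stage and the purity of the embryos were checked with marker genes. Of 14 oocyte and 2-cell markers, 12 were tested, with 4 called higher, against 6.42% of all genes tested, and 0 lower, against 14.1%. At an unadjusted limma p under 0.05, 10 were higher and 0 lower. The replicate block called 10 of them higher, against 2151 of all 12038 genes tested called higher and 42.6% called in either direction. The 14 markers summed to 1082 and 758 TPM in control and 3143 and 2086 TPM in DMSO-treated embryos. Bmp15, an oocyte growth factor, was at 102 and 56.0 TPM against 544 and 285 TPM (log2 fold change 2.36, limma adjusted p = 0.0221), and the 2-cell genes Zfp352, Tcstv1 and Tcstv3, the last being the most abundant of the list, were called higher as well. The maternal effect gene Nlrp5 was listed at 0 or near 0 in every library. Of its 4878 words 12.4% are shared, and 506 occur in Nlrp5-ps, which was at 24.2 and 20.4 TPM in control and 9.16 and 8.58 TPM in DMSO-treated embryos. Reads from the shared part are uncertain in origin, and their part in the level of Nlrp5 was not tested. Of 16 cumulus and granulosa markers only Amhr2 reached the filter, at 36.8 and 29.6 TPM in control and 8.29 and 16.5 TPM in DMSO-treated embryos. It was called lower (limma adjusted p = 0.0442), although not under a pseudocount of 0.1, no variance trend, either scaling or the rescaling without mitochondrially encoded genes (limma adjusted p from 0.0530 to 0.0666), and made up most of the list's sum of 40.6 and 31.9 against 12.6 and 19.7 TPM, while Amh, Inhba and Lhcgr were at 0 in all libraries. The 8 sperm markers summed to 3.27 and 3.38 TPM against 13.8 and 8.76 TPM, with Prm2 the most abundant, Prm2 and Tnp1 called higher (limma adjusted p = 0.0526 and 0.0576 without DMSO replicate 2, and 0.0845 for Tnp1 with a pseudocount of 0.1), and Tnp2 and Smcp at 0. The 5 blood markers summed to 11.0 and 4.11 TPM against 10.7 and 16.2 TPM with none called (0 at an unadjusted p under 0.05), Hba-a2 the most abundant and Hbb-bt at 0 in all libraries. The 8 blastocyst markers summed to 23.0 and 17.2 TPM against 26.8 and 25.3 TPM, led by Nanog, with none called and 2 at an unadjusted p under 0.05. The part of these differences in the values of the 10 genes was not tested.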

How the data were processed

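RNA-seq of 4 libraries of pooled mouse 2-cell embryos was analysed from the deposited table of TPM values. The authors made it by pseudomapping reads with kallisto to Ensembl transcripts of GRCm38 (mm10) and summing transcripts per gene with tximport. The submitters' processing notes also name STAR, SAMtools and bedtools. The authors tested for differential expression with DESeq2, and none of its output was used here. GENCODE M21 (GRCm38) named 29589 of the 30049 identifiers. On log2(TPM + 1), the genes averaging 1 TPM or more over the libraries were fitted by limma 3.58.1 (lmFit, eBayes with trend, no replicate block) in R 4.3.3, which was tested on simulated data. Libraries were grouped by their labels. For reads that genes may share, 31-base words of each gene were looked up on either strand in all other transcripts. Tables and figures were made in Python 3.11.15, pandas 2.3.3, numpy 2.4.6 and matplotlib 3.10.9.

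The members and lists were chosen with earlier results of these data known. The promoter motifs were also chosen then, and those for NRF1 and YY1 were shortened after a search with longer forms. Genes named were the 10 genes and, of each list, up to 4 called genes with the largest change, at least 2 by size where fewer were called, and the most abundant over the 4 libraries. For the highest and the lowest fold change the 3 most similar genes were named. Mtpap, Polg2, Oma1, Mief1, Mief2, Ppargc1a, Ppargc1b, Nlrp5, Supv3l1, Rexo2, Bnip3l, mt-Nd3 and the genes that overlap or share words with a named gene were named after their values were seen. Mpv17 and Usp30 were not analysed here. Alternatives were a pseudocount of 0.1, no filter, a mean of at least 5 TPM, no trend, median-ratio and quantile scaling, TPM without mitochondrially encoded genes, a replicate block, and each library left out.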

Additional observations from a re-analysis of the deposited data

How the results depend on the processing

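With 2 libraries a group, calls depended on the filter on low values and on single libraries. With no filter (22257 genes) limma called 0 genes and 0 of the 10, the limma adjusted p of Polrmt being 0.102 and that of Twnk 0.108. Leaving out a library left 0 to 1883 genes called and 0 to 2 of the 10, the lone library of its group being assumed to vary like the other group. Quantile normalization called 1121 genes lower and 1076 higher, against 1697 and 773 on the deposited values, and moved the median of all genes to 0.01. The summed level of the 10 genes differed by -0.58 with median-ratio scaling and by -0.53 without mitochondrially encoded genes. The log2 fold change of Polg (-0.06) was 0.02 without mitochondrially encoded genes, and -0.26 to 0.14 without any single library, turning sign without DMSO replicate 1. That of Rhot1 (0.10) was -0.22 to 0.42 without any single library, turning sign without control replicate 2 and without DMSO replicate 1 (-0.12), and that of Oma1 (-0.19) was -0.57 to 0.20, turning sign without control replicate 1 (0.04) and without DMSO replicate 2. The cause was not tested. Polrmt and Twnk kept their direction in every alternative, and their calls under a pseudocount of 0.1, a mean of at least 5 TPM, no trend, both scalings, the rescaling without mitochondrial genes and the block.

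Replicate numbers are shared by the groups. Across the 12038 genes, libraries with the same number deviated from their groups together (r = 0.35, genes not being independent), but no source says that a number marks a shared batch. With the replicate block, which leaves 1 residual degree of freedom, limma called 5132 genes, or 42.6%, with 2981 lower and 2151 higher. Of the 10 genes it called 4, Polrmt (limma adjusted p = 0.00227) and Twnk (0.00518) lower and Opa1 (0.0273) and Dnm1l (0.00335) higher. It also called 10 of the 13 mitochondrially encoded mRNAs higher (mt-Atp8 0.0024, mt-Atp6 0.00288), and Nrf1 (0.0153) and Pprc1 (0.0114) lower and Trak1 (0.0252), Tbl1xr1 (0.00429) and Tdrd3 (0.00383) higher. Depth is unknown in TPM, so no counting error could be given for low genes such as Tfam.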
